A study of Phalaenopsis aphrodite subsp. formosana with 4 samples.

Results

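Reads close to 7 registry miRNAs, grouped here as entries that resemble fragments of ribosomal or transfer RNA, were followed in small RNA libraries of the orchid Phalaenopsis aphrodite subsp. formosana. The members were all sequences whose best matching known miRNA carried the number miR1310, miR1318, miR2910, miR2911, miR2914, miR2915 or miR2916. They made up 7 of 368 families, 305 of 11129 unique sequences and 3315 of 1002362 matched reads. Sequences with the same number in their best match form 1 family, and a unique sequence is 1 distinct run of letters with its number of reads.

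The study sequenced small RNAs of strain M1624 to find miRNAs that respond to low temperature or differ between organs. Each of 4 conditions gave 1 library. NL came from leaves of untreated plants (32°C by day, 27°C by night) and CL from leaves of plants moved to low temperature (24°C by day, 18°C by night), each gathered over months 0 to 2. S came from stalks gathered at 1.5 and 2 months and FB from flower buds gathered at 3.5 months, both from the low temperature group. The study describes that treatment as lasting 2 months and gives no temperature for the time up to 3.5 months. All plants were raised in 1 greenhouse before the treatment, and organ and age cannot be told apart in S and FB. With 1 library per condition no test between conditions was possible, and the intervals given here cover counting error only.

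Ribosomal RNA makes up most of the RNA of a cell, and its breakdown leaves short pieces of many lengths that begin at many positions. Transfer RNA is also cut into pieces, often beginning at its mature first base. A plant miRNA is instead cut from a hairpin precursor by DICER-LIKE1, so its reads share 1 first base and nearly 1 length, and Argonaute1, the protein that carries most of them, favours a first U (T in the sequenced DNA). The letters of miR2910, miR2914 and miR2916 occur in plant small subunit rRNA and those of miR2911 in plant large subunit rRNA. The known miR2915 has the letters of the start of a plant lysine tRNA. The known miR1318 comes from rice, and the entries numbered miR2910 to miR2916 used here come from the poplar Populus euphratica. No role is given here for miR1310, whose known sequence comes from the pine Pinus taeda.

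The 3 families with small subunit letters were read as staircases, shown here to make the shifting ends visible. The capitals mark the core that most reads of the family hold. In miR2910 the core of 18 nt was held by 31 of 69 unique sequences and 89.5% of the reads, with first bases up to 5 nt upstream of the most abundant sequence among those shown.
miR2910, 101 reads: gTTGGTGGAGCGATTTGTCt
miR2910, 54 reads: gTTGGTGGAGCGATTTGTCtg
miR2910, 40 reads: agTTGGTGGAGCGATTTGTCt
miR2910, 35 reads: TTGGTGGAGCGATTTGTC
miR2910, 32 reads: tagTTGGTGGAGCGATTTGTCt
miR2910, 27 reads: tcttagTTGGTGGAGCGATTTGTC

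In miR2914 the core of 16 nt was held by 32 of 58 unique sequences and 82.7% of the reads. Its most abundant sequence begins where the known miR2914 begins.
miR2914, 31 reads: catGGTGGTGACGGGTGACgga
miR2914, 23 reads: catGGTGGTGACGGGTGACgg
miR2914, 18 reads: catGGTGGTGACGGGTGAC
miR2914, 11 reads: tGGTGGTGACGGGTGACggag
miR2914, 9 reads: GGTGGTGACGGGTGACggagaa

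In miR2916 the core of 19 nt was held by 33 of 47 unique sequences and 89.6% of the reads. The 2 most abundant sequences begin 2 nt apart.
miR2916, 49 reads: tgGGGGCTCGAAGACGATCAGa
miR2916, 41 reads: GGGGCTCGAAGACGATCAGat
miR2916, 20 reads: tgGGGGCTCGAAGACGATCAG
miR2916, 17 reads: gGGGGCTCGAAGACGATCAGat
miR2916, 15 reads: gttgGGGGCTCGAAGACGATCAGa

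The miR2911 reads, with large subunit letters, shared a core of 17 nt in 98.1% of reads, and 1 sequence of 18 nt led them all. In the lines below the capitals again mark the core.
miR2911, 736 reads: GCTGGGGGACGGACTGGg
miR2911, 112 reads: GCTGGGGGACGGACTGGgaa
miR2911, 92 reads: gGCTGGGGGACGGACTGGgaa
miR2911, 64 reads: GCTGGGGGACGGACTGGga
miR2911, 41 reads: cggGCTGGGGGACGGACTGGga

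The miR2915 reads carried several different lead-ins before the same stretch. The capitals mark the A box, which tRNA genes hold near their start, searched as T, N, GC, NN, AG, NN and GG in a row, where N is any base.
miR2915, 66 reads: gcccgtcTAGCTCAGTTGGta
miR2915, 50 reads: gcccgtcTAGCTCAGTTGG
miR2915, 33 reads: gccgtctTAGCTCAGCTGGta
miR2915, 30 reads: cgacctTAGCTCAGTTGGta
miR2915, 25 reads: gcccgtcTAGCTCAGTAGGta
miR2915, 11 reads: cccgtcTAGCTCAGTTGGta

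The A box letters occurred in 27 of 40 miR2915 sequences, which held 89.8% of the miR2915 reads. The known miR2915 itself holds these letters, and the reads were chosen by their match to it. The share therefore follows largely from the selection. The search covered both strands, and all matches were on the strand that was read. Of all 11129 unique sequences 42 held the letters, or 0.377%, and none of the sequences of the other 6 families did. The B box further along a tRNA gene, searched as GGTTCGA, NN and CC in a row on both strands, was found in none of the 11129 sequences. Since only sequences close to a known miRNA were searched, these absences also depend on the selection.

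The miR1318 reads kept their first base and differed at their end. The capitals mark the seed, bases 2 to 8, in the 3 sequences with the most reads.
miR1318, 405 reads: tGCAGGAGagatgacaccggcc
miR1318, 89 reads: tGCAGGAGagatgacaccgg
miR1318, 76 reads: tGCAGGAGagatgacaccg

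The known rice miR1318 lies whole inside the known rice miR1432, shown with the shared 20 nt in capitals. The orchid miR1318 reads therefore match letters that 2 registry families hold, and only 3, 1, 2 and 3 reads of NL, CL, S and FB were given to miR1432 as their best match.
osa-miR1432: aTCAGGAGAGATGACACCGAC

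The miR1310 family consisted of 2 sequences with 1 read each, both from FB.
miR1310, 1 read: gaggcatcgggggcacaacgccct
miR1310, 1 read: ggcatcgggggcacaacgccc

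The orchid reads were seldom identical to the known entries. Reads identical to the known sequence numbered 26 for miR2910, 11 for miR2915 and 3 for miR2914, and 0 for the other 4 families. Only in miR2914 did the most abundant orchid sequence have the seed of the known miRNA. The differences were fixed rather than scattered in 2 families, with positions counted from the first base of the known miRNA. In miR2911 the substitution C4T stood in 99.9% of the 1279 reads that covered both positions (95% exact binomial interval 99.57 to 99.998%), and G14A in 98.4% (97.5 to 98.98%). In miR2916 A6G stood in all 291 reads that covered it and T21G in 98.6% of 285 (96.4 to 99.6%).

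miR2911, miR1318 and miR2910 were the members read most. In libraries of whole organs, fewer cells of a type and less RNA per cell cannot be told apart. Each level is a number of reads per 1000000 clean reads of its library (RPM), with an exact Poisson 95% interval where one is printed. miR2911 was the family of rank 15 by reads among all 368, with 1294 reads. Its counts were 187 (NL), 558 (CL), 98 (S) and 451 (FB), or 26.0, 75.4, 12.2 and 71.4 RPM. The CL and FB levels overlapped in their intervals (69.3 to 81.9 and 65.0 to 78.3 RPM), and NL (22.4 to 29.97 RPM) and S (9.93 to 14.9 RPM) lay apart from both and from each other.

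miR1318, of rank 19 with 723 reads, had another order. Its counts were 182 (NL), 289 (CL), 183 (S) and 69 (FB), or 25.3, 39.1, 22.8 and 10.9 RPM. FB, where miR2911 was near its highest, was the lowest library for miR1318, and the NL and S intervals overlapped (21.7 to 29.2 and 19.6 to 26.4 RPM).

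miR2910, of rank 21 with 515 reads, was highest in CL. Its counts were 109 (NL), 193 (CL), 98 (S) and 115 (FB), or 15.1, 26.1, 12.2 and 18.2 RPM. The interval of CL (22.5 to 30.04 RPM) overlapped none of the others, and NL (12.4 to 18.3 RPM) overlapped both S and FB.

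The other families with small subunit letters were lower than miR2910 in each library. miR2916, with 309 reads, had 68 (NL), 95 (CL), 80 (S) and 66 (FB), or 9.44, 12.8, 9.98 and 10.4 RPM. All 4 of its intervals overlapped. miR2914, with 168 reads, had 34 (NL), 35 (CL), 42 (S) and 57 (FB), or 4.72, 4.73, 5.24 and 9.02 RPM. It was highest in FB, although the FB interval (6.83 to 11.7 RPM) overlapped slightly with that of S (3.78 to 7.08 RPM). Per matched read both families were instead highest in S, miR2916 at 0.0754% and miR2914 at 0.0396% of matched reads. On that scale miR1318 (0.172%), miR2910 (0.0923%) and miR2915 (0.0471%) were also highest in S, and miR2911 in FB (0.170%).

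miR2915, the family with tRNA letters, had counts of 64 (NL), 106 (CL), 50 (S) and 84 (FB), 304 in all. Its levels were 8.89, 14.3, 6.24 and 13.3 RPM. CL and FB overlapped (11.7 to 17.3 and 10.6 to 16.5 RPM) and both were apart from S (4.63 to 8.22 RPM). miR1310 was read 0 times in NL, CL and S and 2 times in FB. A count of 0 allows up to 3 reads, or 0.417 RPM in NL, 0.405 in CL and 0.374 in S, so its difference between libraries was not detectable at this depth.

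**Figure D1:**
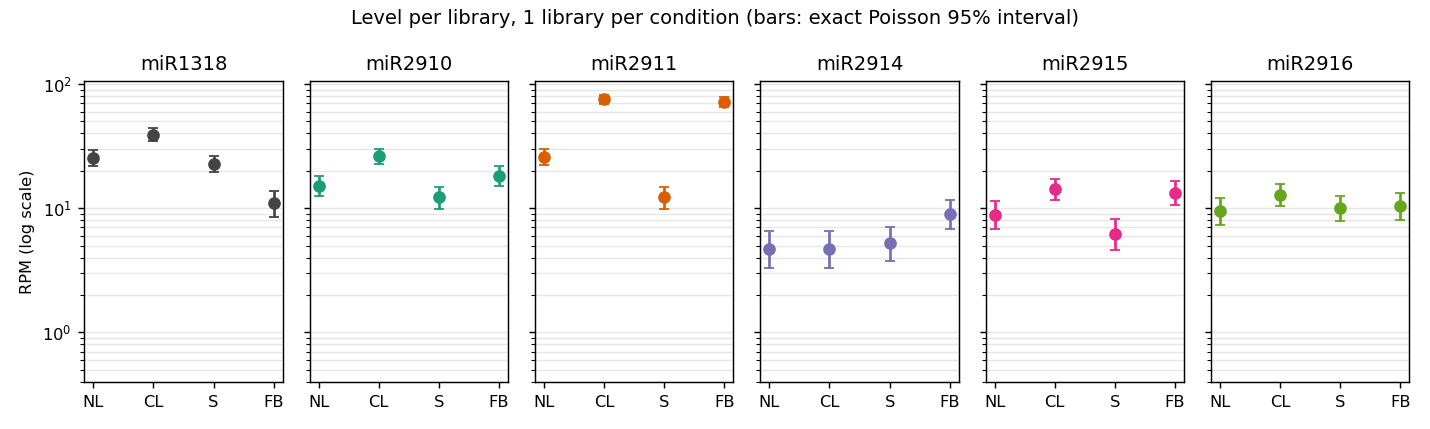
Level in RPM (log scale) of the 6 members with at least 100 reads in NL, CL, S and FB, 1 point per library with its exact Poisson 95% interval. miR2911 lies at 75.4 RPM in CL and 71.4 in FB against 12.2 in S, whereas miR1318 is lowest in FB at 10.9 RPM and the 4 points of miR2916 lie between 9.44 and 12.8 RPM.

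Together the 7 families had 644, 1276, 551 and 844 reads in NL, CL, S and FB, or 89.4, 172, 68.7 and 134 RPM. The matched reads of the libraries numbered 226523, 404345, 106142 and 265352, so the members held 0.284, 0.316, 0.519 and 0.318% of them. S was thus the lowest library per clean read and the highest per matched read, and the choice of denominator decided the direction of several comparisons with S.

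The low temperature leaves were compared with the untreated leaves to see which families differ with temperature. Of the members, 4 of the 5 with at least 100 reads over both libraries were called higher in CL, at a ratio of RPM above 1.5, and none lower. Among all 25 families that could be called, 44.0% were higher and 4.0% lower. The ratio was 2.90 for miR2911 (exact conditional 95% interval 2.46 to 3.45), the second highest of the 25.

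miR2910 had a ratio of 1.72 (1.36 to 2.20), miR2915 of 1.61 (1.17 to 2.23) and miR1318 of 1.55 (1.28 to 1.87). All 3 intervals reach below 1.5. miR2916 was between the limits at 1.36 (0.986 to 1.88), and miR2914, with too few reads to be called, had the ratio 1.002 (0.607 to 1.66).

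Per matched read in place of clean read, every ratio of CL to NL is smaller by a factor of 0.576. miR2911 was then still higher (1.67, 1.41 to 1.98), whereas miR2910 (0.992), miR2915 (0.928) and miR1318 (0.890) went to the other side of 1 with intervals that hold 1.

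Stalks were compared with leaves of the same temperature. Of the members, 4 of 5 were called lower in S, at a ratio below 0.667, and none higher, where 72.0% of the 25 families were lower and 12% higher. miR2911 had 0.162 (0.129 to 0.201), miR2915 0.435 (0.305 to 0.615), miR2910 0.469 (0.364 to 0.601) and miR1318 0.585 (0.483 to 0.706). miR2916 was between the limits at 0.777 (0.570 to 1.06), and miR2914 was not called at 1.11 (0.690 to 1.79). With reads of 20 to 22 nt miR2916 was lower at 0.502 (0.327 to 0.760). In that setting 5 of 5 members were lower, beside 20 of all 23 families.

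Per matched read the ratios of S to CL are larger by a factor of 4.13 and these directions turned: miR1318 2.41, miR2910 1.93 and miR2915 1.80 were above 1.5, and miR2916 reached 3.21. miR2911 stayed below 1 on both scales (0.669 per matched read, 0.534 to 0.831).

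Flower buds were compared with leaves of the same low temperature group, although the temperature at the harvest of the buds is not given. Of the members, 1 of 5 was called lower in FB and none higher, beside 21.4% lower and 32.1% higher among 28 families. The lower family was miR1318 at 0.280 (0.212 to 0.365), and it was also lower per matched read (0.364). The other members lay between the limits, miR2910 at 0.698 (0.549 to 0.884), miR2916 at 0.814 (0.585 to 1.13), miR2915 at 0.928 (0.689 to 1.25) and miR2911 at 0.947 (0.834 to 1.07). miR2914, with 92 reads over both libraries, had the ratio 1.91 (1.23 to 2.99).

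Between the reproductive organs the members separated most. In FB against S, 2 of 5 were called higher and 1 lower, beside 65.4% higher and 3.85% lower among 26 families. miR2911 was higher at 5.84 (4.68 to 7.34), or 1.84 (1.48 to 2.31) per matched read, and miR2915 at 2.13 (1.48 to 3.09), the latter with 0.672 per matched read. miR1318 was the lone family of the 26 called lower per clean read, at 0.478 (0.357 to 0.634) and at 0.151 per matched read. Per matched read 11 of the 26 were lower. With high-quality reads as the denominator, or with counts compared without any denominator, 2 families were lower. The same number was lower with sequences of at least 2 reads, with 20 to 22 nt and without the most abundant sequences.

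miR2910 at 1.49 (1.13 to 1.97) and miR2916 at 1.05 (0.744 to 1.47) were between the limits, and per matched read they were 0.469 and 0.330. miR2914 had the ratio 1.72 (1.14 to 2.63) on 99 reads, and 0.543 (0.358 to 0.829) per matched read. For the sum of the 7 families the ratio of FB to S was 1.94 (1.74 to 2.17) per clean read, and without miR2911 it was 1.10 (0.959 to 1.26). Per matched read the sum was 0.613 (0.550 to 0.683).

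**Figure D2:**
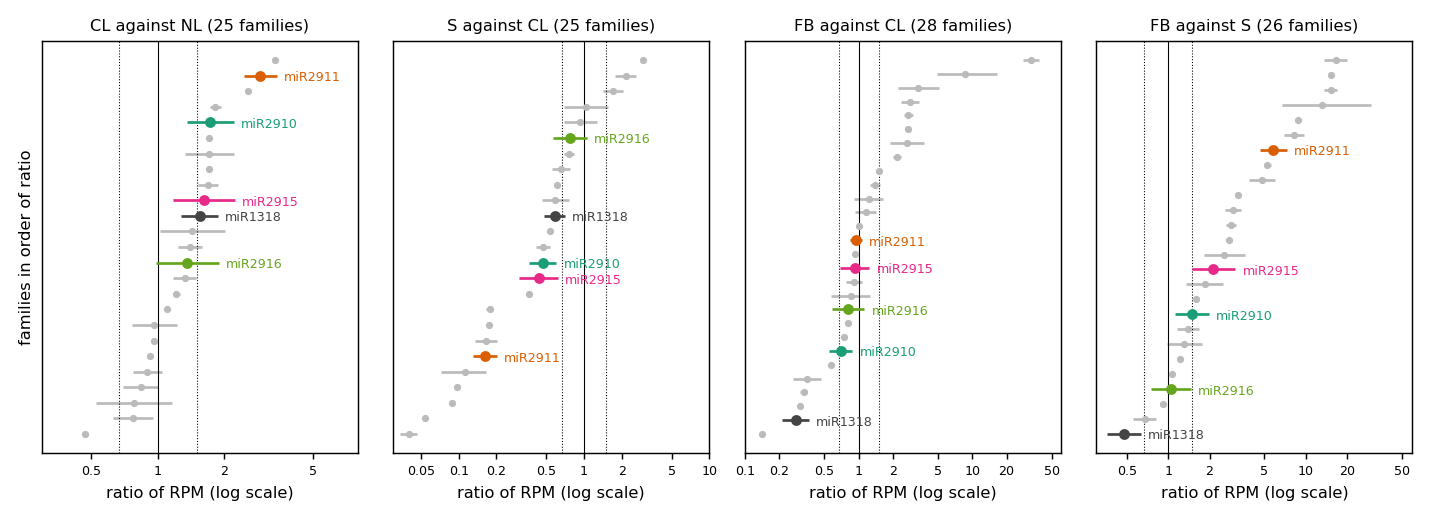
Ratio of RPM (log scale) of each family with at least 100 reads over the 2 libraries, in order within each of the 4 comparisons; coloured points are members, grey points other families, bars the exact conditional 95% interval, dotted lines the limits 0.667 and 1.5. miR2911 ranges from 0.162 in S against CL to 5.84 in FB against S, and miR1318 is the lowest point of FB against S at 0.478; per matched read the S against CL ratios of miR1318, miR2910 and miR2915 lie above 1.

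Ratios between members of the same library need no denominator. miR2911 was set against the sum of the small subunit families miR2910, miR2914 and miR2916, a set joined after their values were seen. That ratio was 0.886 in NL (0.724 to 1.08), 1.73 in CL (1.50 to 1.99), 0.445 in S (0.347 to 0.568) and 1.89 in FB (1.62 to 2.23). The miR2911 reads thus outnumbered that sum in CL and FB and not in S, and the intervals of CL and FB were apart from those of NL and S. No rRNA or tRNA sequence was used here, so the reads were not placed on either subunit. miR1318 against the same sum was 0.863, 0.895 and 0.832 in NL, CL and S and 0.290 in FB (0.218 to 0.380).

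Of the reads of the 7 families, miR2911 held 29.0% (NL), 43.7% (CL), 17.8% (S) and 53.4% (FB). miR2915 held a steadier share of 9.94, 8.31, 9.07 and 9.95%. miR2910 held 16.9, 15.1, 17.8 and 13.6%.

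The lengths of the reads separated the members from each other. Reads below 18 nt are not in the tables, and a gel step for 20 to 25 nt preceded sequencing. The lengths were therefore bounded on both sides. The study removed the most reads below 18 nt from FB, then from CL, S and NL in this order. The part of this in the miR2911 lengths and levels was not tested. Most reads of conserved plant miRNAs are 21 nt, and in 15 conserved families a median of 98.3% of reads had 20 to 22 nt (58.4 to 99.4%). The members had 82.3% for miR1318, 76.6% for miR2915, 68.5% for miR2914, 64.7% for miR2916, 63.5% for miR2910 and 30.4% for miR2911, all below that median. All but miR2911 lay inside the conserved range. Over the 36 families with at least 100 reads the median was 79.5%, and miR1318 lay above it. Families outside the members, such as miR1023 (19.4%) and miR1511 (0%), were lower than miR2911.

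miR2911 was the shortest. Reads of 18 nt, the minimum, were 60.7% of the family (57.9 to 63.3%), and reads of 18 to 19 nt were 63.1% (NL), 67.2% (CL), 67.3% (S) and 75.6% (FB). In the families outside the members that class was 5.33, 3.29, 5.78 and 5.99% of reads. Without miR528 it was 6.48, 4.98, 6.27 and 9.46%, also highest in FB, and its part in the miR2911 values was not tested. The FB interval of miR2911 (71.4 to 79.5%) was apart from those of NL (55.8 to 70.03%) and CL (63.1 to 71.1%) and overlapped that of S (57.1 to 76.5%). The short reads of miR2911 were mainly 1 sequence: without the sequence of 736 reads 70.4% of its reads had 20 to 22 nt, and counted per unique sequence the share was 80.95%.

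miR2910 and miR2916 were the broadest, with standard deviations of length over reads of 1.84 and 1.59 nt, which rank 2 and 6 among the 36 families with at least 100 reads. miR2910 ranged from 18 to 26 nt with 22.7% of reads of 23 nt or longer, and miR2916 from 19 to 27 nt with 34.95%. miR2916 was nearly without reads of 18 to 19 nt, with 0 in NL, CL and S, which allows shares of up to 5.28, 3.81 and 4.51% by the exact binomial interval, and 1 in FB.

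The long reads differed between libraries in these families. In miR2916 they were 53.8% in S (42.2 to 65.0%), against 29.4% (NL), 28.4% (CL) and 27.3% (FB). In miR2910 they were 8.70% in FB (4.25 to 15.4%), against 26.6% (NL), 25.4% (CL) and 29.6% (S). S lay apart from the other 3 libraries by its interval in miR2916, and FB in miR2910. In the other families of the libraries the same class was 1.25, 0.789, 1.68 and 0.407% of reads, highest in S and lowest in FB, and its part in the result was not tested.

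The remaining members had 1 dominant length. miR1318 had 60.3% of reads at 22 nt, and by library 65.4, 62.6, 55.2 and 50.7% in NL, CL, S and FB. miR2915 had 43.8% at 21 nt and none above 22 nt, with the narrowest spread of the members (standard deviation 0.958 nt). miR2914 had 35.7% at 22 nt and ranged from 19 to 27 nt.

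**Figure D3:**
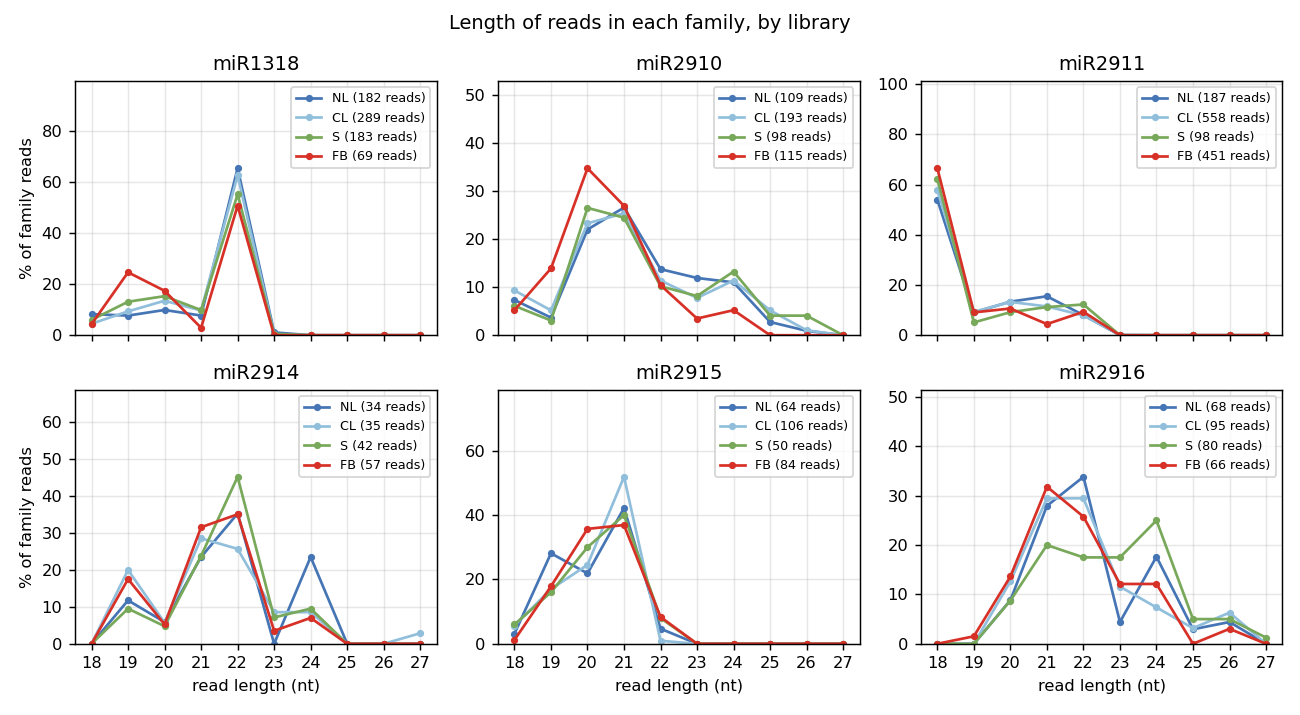
Share of the family's reads (%) at each length from 18 to 27 nt for the 6 members with at least 100 reads, 1 line per library with its number of reads in the key. miR2911 peaks at 18 nt and miR1318 at 22 nt in all 4 libraries, and in miR2916 the S line lies above the others at 23 to 25 nt (53.8% of its reads had 23 nt or more, against 27.3 to 29.4%).

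The position of the first base differed widely among the members. Each read was placed on the most abundant sequence of its family with an overlap of at least 15 nt and at most 2 mismatches. In miR1318 95.1% of the placed reads shared 1 first base, the same as the median of the conserved families (95.1%, range 51.0 to 98.6%). In miR2916 the most common first base held 33.1% and in miR2910 33.7%, the lowest values of the 36 families. miR2914 had 55.8% and miR2911 71.3%. At most 1 mismatch or gap to the known miRNA was met by 94 of 515 miR2910 reads and 38 of 168 miR2914 reads. Among these the shares were 62.8% in miR2910 and 97.4% in miR2914. miR1318, miR2911 and miR2916 had no such reads.

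miR2910 reads began at 9 positions, 7 of which held over 5% of the reads, and miR2916 reads at 7 positions, 4 of them over 5%. In miR2916 the 3 adjacent positions from 0 to 2 nt held 33.1, 20.98 and 29.2%. In miR2911 the position 1 nt upstream held 21.3%. miR1318 had 2 positions in all.

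The last bases were spread as well. The most common last base held 30.1% of placed reads in miR2914, 32.8% in miR2916 and 49.5% in miR2910, which rank 36, 35 and 31 of 36, against a median of 94.0% in the conserved families. For miR1318 it held 65.1%, and for miR2911 62.3%.

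For miR2915 88.7% of placed reads shared the first base, but only 70.1% of its reads could be placed, and forms with another lead-in were among those left out. The most abundant form starts with an added G before the known miR2915. Among the reads that carry the first 14 nt of the known miR2915 at their start, with or without this G, the G was missing in 2.27% in NL (1 of 44), 2.94% in CL, 10% in S and 23.1% in FB (12.5 to 36.8%, 12 reads). The FB interval lay above those of NL (0.0575 to 12.02%) and CL (0.358 to 10.2%) and overlapped that of S.

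**Figure D4:**
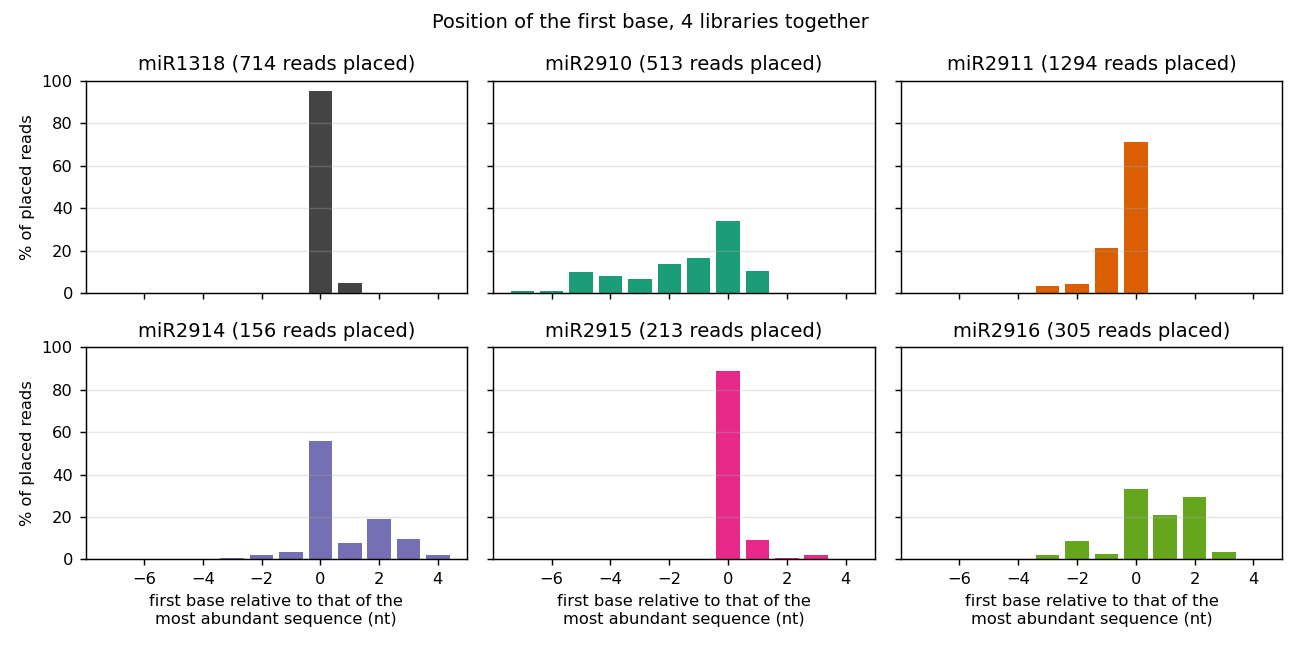
Share of placed reads (%) by the position of the first base relative to that of the most abundant sequence (nt), 4 libraries together. miR1318 has 95.1% and miR2915 88.7% at position 0, whereas miR2910 spreads over 9 positions and miR2916 over 7, with no position above 33.7%.

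The letter at the first base also separated the members. T opened 95.02% of miR1318 reads, where the conserved families had a median of 95.6%. It opened 40.97% of miR2910, 38.2% of miR2916 and 19.05% of miR2914 reads, 0.987% of miR2915 reads and 0.232% of miR2911 reads, the lowest of the 36 families. G opened 96.4% of miR2911, 79.6% of miR2915 and 59.5% of miR2916 reads, the 3 highest shares of the 36. miR2911 also had the highest GC content over reads, 76.1%, and miR2914 ranked 4 with 64.4%.

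The number of unique sequences per read was compared next. The members had 15.4 reads per unique sequence in miR1318, 30.8 in miR2911, 7.60 in miR2915, 7.46 in miR2910, 6.57 in miR2916 and 2.90 in miR2914. This number grows with the reads of a family, so the unique sequences expected in a draw of 100 reads were also computed. They were 40.1 for miR2914, 28.9 for miR2916, 28.3 for miR2910, 22.9 for miR2915, 14.6 for miR2911 and 13.2 for miR1318. The conserved families ranged from 8.90 to 26.98 with a median of 13.1, so miR2914, miR2916 and miR2910 lay above the range and miR1318 at its median. Among the 36 families with at least 100 reads miR2914, miR2916 and miR2910 ranked 7, 10 and 11. Some families outside the members were more varied, such as miR415 (70.6) and miR845 (59.1), so the trait was not particular to the members.

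The most abundant sequence held 56.9% of the reads of miR2911 and 56.0% of miR1318, but 21.7% in miR2915, 19.6% in miR2910, 18.5% in miR2914 and 15.9% in miR2916. In the conserved families it held 36.4 to 88.8% with a median of 67.3%. By library it held 61.5, 59.2, 51.4 and 40.6% of miR1318 reads in NL, CL, S and FB, and 50.3, 53.2, 58.2 and 63.9% of miR2911 reads.

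**Figure D5:**
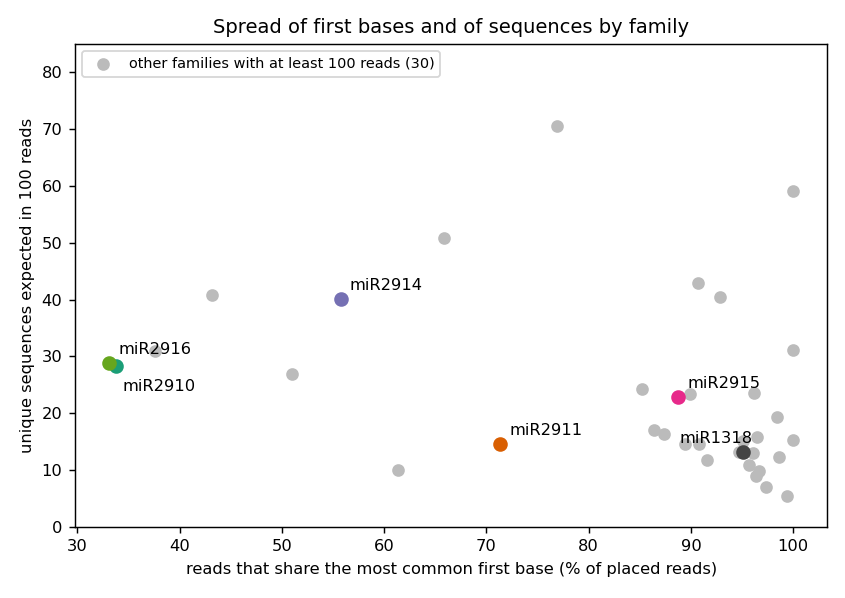
Unique sequences expected in 100 reads against the share of placed reads with the most common first base (%), for the 36 families with at least 100 reads; coloured points are the 6 members and grey points the other 30. miR2916 and miR2910 lie at the left edge (33.1 and 33.7%) and miR1318 lies among the families with 1 fixed first base (95.1%, 13.2 sequences).

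A small part of the sequences recurred in every library. Of the 305 unique sequences of the members 50 were read in all 4 libraries and held 82.4% of the reads, below the 97.5% of the conserved families and the 97.0% of all families, whereas 62.6% of the sequences were in 1 library and 181 were read once. The 4 sequences with at least 100 reads held 40.8% of the member reads. In the conserved families 9.83% of unique sequences were in all 4 libraries, compared with 16.4% of the members, and 58.7% were read once, compared with 59.3%.

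The measurements were set beside the label that joins these families. Some of them follow from the match to the known entries and are no check of the label. The known miR2915 holds the A box letters, the known miR2911 begins with GG, and the known miR1318 begins with T and lacks the A box letters. With at most 1 mismatch or gap, 97.4% of 38 miR2914 reads and 62.8% of 94 miR2910 reads shared 1 first base. Over all reads, miR2910, miR2914 and miR2916 had spread first and last bases, miR2911 short reads opening with G, and miR2915 the A box letters. Apart from a spread last base, miR1318 showed none of these features. It had a fixed first base, a first T, a main length of 22 nt and no A box letters, and 91.01% of its reads (81.2 to 93.4% by library) began with the first 18 nt of its most abundant sequence. The origin of the reads of any member was not tested. For miR1310, 2 reads allow no such comparison. Since the tables hold only sequences close to a known miRNA, fragments of the same rRNA or tRNA farther along were not analysed here, and the spread of first bases is bounded by the match.

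The families whose profile over the 4 libraries was most like each member were found by the root mean square difference of centred log2 RPM, among 35 other families with at least 100 reads. They were miR168 (0.17) and miR2915 (0.19) for miR2910, and miR2910 (0.19) and miR162 (0.22) for miR2915. For miR2911 they were miR1511 and miR535 (both 0.34), for miR2914 miR829 (0.19) and miR165 (0.24), and for miR2916 miR1026 (0.18) and miR845 (0.19). For miR1318 the nearest, miR1171 and miR399, were at 0.40. The small subunit families were not among each other's nearest 2 families. The profiles rest on 4 libraries and are descriptions.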

How the data were processed

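Small RNA reads of 4 libraries were used, 1 per condition. The authors deposited, for every distinct sequence that matched a known miRNA, its count of reads, left after trimming of adaptors and removal of low quality reads and of those shorter than 18 nt. The study also sorted out rRNA, tRNA and other known RNA by Rfam and GenBank, in classes listed apart from its miRNA class. Fragments of rRNA or tRNA placed in those classes may therefore be missing from the counts used here. They aligned the sequences by BLAST (version not given in the sources used here) to miRBase 15, and the deposited alignment score was not used. The column described as the matched length held the length of the read and was used as such. Clean read totals came from the study. The matched reads per library, 106142 to 404345, set the precision.

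RPM, shares (exact binomial intervals), levels (exact Poisson) and ratios (exact conditional binomial) were computed with Python 3.11.15, NumPy 2.4.6, pandas 2.3.3 and SciPy 1.17.1, and drawn with matplotlib 3.10.9. PCR copies are not independent molecules, so intervals cover counting error only. Ratios past 1.5 or below 0.667 were called where both libraries together had at least 100 reads. The named items were all 7 families, their 3 most abundant sequences and any sequence that led in 1 library, 2 comparison lists and the 2 families of nearest profile. Further sequences printed were chosen to show the ends. The scripts were tested on simulated data. The members and lists were chosen with earlier results of these data known. Alternatives changed the denominator, the sequences used, the ratio limit and the read minimum.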

Additional observations from a re-analysis of the deposited data

How the results depend on the processing

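The denominator changed the most. With all matched reads, every ratio shifted on the log2 scale by -0.80 in CL against NL, 2.04 in S against CL, 0.38 in FB against CL and -1.67 in FB against S. The sum of the 7 families then had the ratios 1.11, 1.65, 1.01 and 0.613, in the order CL against NL, S against CL, FB against CL and FB against S, where it was 1.93, 0.399, 0.775 and 1.94 per clean read. The number of members called became 1 higher in CL against NL, 4 higher and 0 lower in S against CL, and 1 higher and 3 lower in FB against S. Among all families the counts were 2 higher and 9 lower of 25 in CL against NL, 16 higher and 5 lower of 25 in S against CL, and 9 higher and 11 lower of 26 in FB against S. Of the families called per clean read, those that turned were miR1318 (0.890), miR2910 (0.992) and miR2915 (0.928) in CL against NL, miR1318 (2.41), miR2910 (1.93) and miR2915 (1.80) in S against CL, and miR2915 (0.672) in FB against S. Ratios not called per clean read that crossed 1 were miR2914 (0.577) and miR2916 (0.783) in CL against NL, miR2916 (3.21) in S against CL, miR2911 (1.23), miR2915 (1.21) and miR2916 (1.06) in FB against CL, and miR2910 (0.469), miR2914 (0.543) and miR2916 (0.330) in FB against S.

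Matched reads without miR528 gave sums of 1.48, 1.08, 1.05 and 0.975, with 1 member higher in CL against NL, 2 higher and 1 lower in S against CL, and 1 higher and 2 lower in FB against S. Among all families 3 of 25 were higher and 4 lower in CL against NL, 11 higher and 9 lower of 25 in S against CL, and 10 higher and 7 lower of 26 in FB against S. Of the called families miR1318 (1.58), miR2910 (1.26) and miR2915 (1.17) turned in S against CL, where miR2916, not called per clean read, reached 2.10. In FB against S miR2910 (0.747), miR2914 (0.864) and miR2916 (0.525), none of them called per clean read, were below 1. High-quality reads gave 3 members higher in CL against NL, beside 10 of all 25 families, and miR1318 was at 1.48. Their sums were 0.693 in FB against CL and 1.68 in FB against S. In FB against CL 2 members were lower, beside 8 of all 28 families. Counts compared without any denominator gave sums of 0.661 in FB against CL and 1.53 in FB against S. Here too 2 members were lower in FB against CL, beside 8 of all 28 families.

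With at most 1 mismatch or gap the sums were 1.13, 0.476, 1.05 and 2.20, and no member reached 100 reads, so none could be called. With 20 to 22 nt they were 1.74, 0.445, 0.652 and 1.46. In S against CL 5 of 5 members, miR2916 (0.502) among them, were then lower, beside 20 of all 23 families. Without the most abundant sequence of each family they were 0.455 in S against CL and 1.62 in FB against S. In FB against CL 2 members were then lower, a count not set here beside that of all families. A ratio limit of 2 left 1 member higher in CL against NL, among 3 of 25 families. A minimum of 20 reads or no minimum made 1 member, miR2914, higher in FB against CL, among 16 of 46 and 47 of 104 families.

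The share of placed reads at the most common first base, 33.7% in miR2910 and 55.8% in miR2914, was 62.8 and 97.4% with at most 1 mismatch or gap, a limit that by its construction keeps ends near those of the known miRNA. With at least 2 reads per sequence the first base and 20 to 22 nt shares of all 6 families kept within their error. The values followed were the shares at the main first base, of 20 to 22 nt and of the most abundant sequence, and the reads per unique sequence. Without the most abundant sequence 22 of 28 such values moved. Weighted by unique sequence, where reads per unique sequence was left out, 15 of 21 moved. Both settings act directly on the share of the most abundant sequence, and the former also on reads per unique sequence. Part of these counts was thus fixed in advance. Over all values of single families and of all families, with those above included, 208 kept within their limit and 127 moved. A further 10, ratios of called families, turned to the other side of 1.

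Chosen after the data were seen, sums without miR2911 were 1.53, 0.582, 0.641 and 1.10. Sums without miR1318 were 0.344 in S against CL, 0.920 in FB against CL and 2.67 in FB against S. The causes were not tested. No paired analysis was possible because each condition had 1 library and no replicate numbers. Families with few reads, such as miR2914 and miR1310, are limited by depth.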

Other observations

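Families with neighbouring numbers were nearly absent. miR2912 had 1, 1, 1 and 0 reads in NL, CL, S and FB, miR2913 had 2, 2, 0 and 3, and miR2917 had none in any library, which allows up to 3 reads each.

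A family outside the 7, miR894, had the lowest share of reads at 1 first base after miR2916 and miR2910. It had 7666, 7612, 4989 and 4833 reads in NL, CL, S and FB, or 1064, 1029, 622 and 765 RPM, and so held more reads than the 7 families together in each library. Its most common first base held 37.6% of placed reads, its most abundant sequence 21.3% of reads, and 100 of its reads were expected to hold 30.9 unique sequences. None of its 690 unique sequences held the A box letters. No statement about its origin was tested.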
